A study of Mus musculus with 20 samples.

Results

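The cytosolic ribosomal protein genes were taken from the single-cell RNA sequencing (scRNA-seq) tables by symbol: Rpl or Rps followed by a digit, and Rplp0 to Rplp2, without the Rps6k kinases and without pseudogenes. This gave 84 members, the same 84 in both tables, of 15855 genes in the culture table and 15333 in the tumor table. Of these, 43 encode proteins of the large subunit, 30 of the small subunit and 3 the P-stalk, and 6 are variant copies of another member (Rpl3l, Rpl22l1, Rpl36al, Rpl39l, Rps27l and Rps27rt). The symbols also brought in 2 genes that do not encode a subunit of the mature ribosome, Rpl7l1 and Rps19bp1, and they missed some that do, such as Rpsa, Fau and Rack1.

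A ribosome has a small subunit, which reads the mRNA, and a large subunit, which joins the amino acids, and most of its proteins are present in a single copy. Their mRNAs are among the most abundant of a cell and many begin with a C and a run of pyrimidines (the TOP element), through which mTORC1 and Larp1 control their translation. Lymphocytes and cycling cells are known for high levels of these mRNAs, and mature neutrophils for little RNA and little protein synthesis.

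The study asked whether cancer turns B-cell precursors of the bone marrow (BM) into macrophages. For scRNA-seq, B-MF were grown from BM B cells and Mo-MF from BM monocytes, each for 7 days in medium conditioned by 4T1.2 mouse mammary cancer cells (4T1.2-CM), with 2 libraries of each. Tumor-associated macrophages (TAM) were sorted from different mice with 4T1.2 cancer, with 4 libraries. ATAC-seq was performed on CSF1R+ and CSF1R- B-cell precursors from BM and spleen of naïve mice, with 3 libraries of each, labelled macrophages in the sample records. The labels name no genotype or strain. The methods give female mice 8 to 12 weeks old and name C57BL/CJ or BALB/CJ mice for the cultured B cells, without a strain for each library. Cultures were not stated to come from separate mice, so p-values measure the spread between these libraries. The labels number the tumor libraries 1 to 4 and the data columns 2 to 5, so they are named here as in the columns and cannot be matched to single samples.

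The libraries held 4846 to 5389 cells in culture and 2318 to 3180 cells in tumor, with medians of 18350 to 19469 and 7651 to 8266 counts per cell. Counts are here those left by SCTransform, which adjusts every cell of a table to a common depth, so they are called corrected counts and show relative and not total RNA. All 10 macrophage markers were found in the cultures, and their levels summed to 304 and 293 corrected counts a cell for B-MF against 613 and 604 for Mo-MF. Such a sum is led by its most abundant markers and does not rank the groups as macrophages. Pax5, which defines B cells, was under 0.01 in every culture library. The 8 B-cell markers together summed to 0.607 and 0.568 for B-MF against 0.850 and 0.793 for Mo-MF, and 3 of them reached 0.1 in a library. A culture cluster of 294 cells, led by the immunoglobulin gene Igkc, the protease gene Prss34 and the antigen presentation gene H2-Eb1, was not named. It had 5 of the 8 B-cell markers above average, but also 10 of 10 macrophage markers and 5 of 5 basophil or mast cell markers. Of its cells 138 and 116 came from B-MF and 24 and 16 from Mo-MF. With finer clustering (resolution 1), Igkc and Prss34 led a cluster of 46 cells. H2-Eb1 and Cd74 there led a cluster of 258 cells named macrophage from 10 of 10 markers. Neutrophil markers summed to 4.85 and 4.56 in B-MF and to 173 and 137 in Mo-MF, where 505 and 517 cells clustered as neutrophil-like. The tumor cells were labelled macrophages, yet 35.0% to 62.0% of the cells of a library clustered as neutrophil-like. Clusters were built without the ribosomal protein genes. Libraries of a table shared at most 14 cell barcodes, and no doublet caller was run.

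Over all cells, ribosomal protein transcripts made up a larger share of the counts in both B-MF libraries than in both Mo-MF libraries. Of all corrected counts, 11.4% and 11.9% belonged to these genes in the B-MF libraries, against 10.3% and 10.5% in the Mo-MF libraries, so the groups did not overlap. The means were 11.6% ± 0.357 (SD, n = 2) and 10.4% ± 0.204 (SD, n = 2), a difference of 1.22 percentage points or 1.12-fold. By the exact permutation test, two-sided, p = 0.333, which is the smallest value that 2 against 2 libraries can give. Per cell this was 2195 ± 35.6 corrected counts for B-MF against 1974 ± 35.2 for Mo-MF (SD, n = 2 each).

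Within the cells named monocyte/macrophage-like by their markers the size of the difference depended on how finely the cells were clustered, and all values within these cells were chosen after seeing the data. At a clustering resolution of 0.25 they were 99.6% and 99.7% of the B-MF libraries and 89.2% and 90.1% of the Mo-MF libraries. The share was there 11.3% and 11.8% against 10.4% and 10.7%, a difference of 1.05 percentage points without overlap. At a resolution of 1 they were 70.4% and 73.1% against 32.2% and 31.3% of the libraries, and the share was 11.8% and 12.3% against 11.2% and 11.6%, a difference of 0.648 without overlap. At the resolution of 0.5, used for the classes elsewhere, they were 84.5% and 86.6% (4424 and 4612 cells) against 24.1% and 24.6% (1170 and 1324 cells). The libraries overlapped there, at 11.6% and 12.05% against 11.5% and 11.8%, and the difference was 0.163 (exact permutation test, two-sided, p = 0.667, against p = 0.333 at the other resolutions).

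The resolutions treated Mo-MF cells led by Bex1 and Arg1 differently. At 0.25 these cells fell in a cluster with 9 of 10 macrophage markers above average and were named. At 0.5 the cluster, with 2501 and 2833 Mo-MF cells and shares of 9.84% and 10.2%, was not named by the markers. At 1 these cells were divided: 1432 and 1645 fell in a cluster led by Fn1, Arg1 and Bex1 that was not named, and 990 and 1091 in a cluster led by Slpi, Mmp14 and F10 that was named from 5 of 10 markers. At 0.5 different clusters held the class: those led by Gpx3 and Fabp3 and by Pf4 and Ier3 in B-MF, and the one led by Ly6a in Mo-MF. At 0.25 the 2501 and 2833 Mo-MF cells all lay in the cluster led by Arg1, apart from the largest cluster, led by Id3 and Nr4a1. Clusters of B-MF and Mo-MF were not matched at any resolution. Whether the difference over all cells was one of cell makeup was not tested.

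Other cell types and mitochondrial transcripts moved with the result over all cells as well. Without the clusters of other cell types it came to 11.3% and 11.9% in B-MF against 10.4% and 10.7% in Mo-MF, and the difference was 1.04 percentage points. Mitochondrial-encoded transcripts took 7.92% and 7.70% of B-MF counts against 5.07% and 5.24% of Mo-MF counts. With these transcripts left out of the total, the difference was 1.64 percentage points. A culture cluster led by mitochondrial genes had ribosomal protein shares of 7.78% and 8.74% in B-MF against 10.2% and 10.3% in Mo-MF, and without it the difference was 1.40 percentage points, a choice made after seeing the data. The part of mitochondrial transcripts in the difference was not tested.

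Over all cells, members with symbols of Rpl and a digit gave 50.01% and 50.2% of all ribosomal protein counts in B-MF. They gave 49.3% and 49.5% in Mo-MF, without overlap. The difference was 0.722 percentage points (exact permutation test, two-sided, p = 0.333). These symbols include Rpl7l1 and the Rpl variant copies and leave out the P-stalk of the large subunit, so this is not the split between subunits. The 10 most abundant members in culture supplied 24.1% of the ribosomal protein counts.

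Gene by gene over all cells, 82 of the 84 members had a mean of at least 0.1 corrected counts per cell and were tested with limma among 8633 genes, and Rpl3l and Rpl39l were not. Of the 82, 43 were higher in B-MF and 1 was lower (Benjamini-Hochberg adjusted p under 0.05 over all genes), and 38 did not pass. The background over all genes tested was 22.6% higher and 16.9% lower. The median difference was 0.17 for the members and 0.02 for all genes, on the scale of log2(mean corrected count + 0.1). Both B-MF libraries lay above both Mo-MF libraries for 61 members and below them for 3, against 40.0% and 29.6% of all genes tested. Higher were 25 of the 43 large subunit genes and 15 of the 30 small subunit genes. The count was 16 without Mo-MF replicate 1 and 23 without Mo-MF replicate 2, against a background of 13.1% and 12.8% higher. It was 59 without B-MF replicate 1 and 54 without B-MF replicate 2, against 26.3% and 44.7%. Without the clusters of other cell types 34 were higher and 1 was lower, against 20.7% and 16.9%.

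Within the cells named monocyte/macrophage-like the counts again depended on the resolution. At 0.25, 37 of the 82 members were higher in B-MF and 1 was lower, against 20.9% and 17.2% of all genes tested. At 1 it was 9 and 1, against 15.4% and 14.7%. At 0.5 it was 5 and 13, against 11% higher (959) and 39.6% lower (3457) of 8720 genes, so the balance of all genes moved too. The median of the members was there -0.02 and that of all genes -0.14, as 0.17 stood beside 0.02 over all cells. In these cells Rpl10a was higher in B-MF and Rps27rt lower at each resolution, by 0.32, 0.31 and 0.22 and by -0.48, -0.53 and -0.61 at 0.25, 0.5 and 1. Rpl10 was higher as well, by 0.30, 0.20 and 0.21. Rpl13a was higher by 0.28 and 0.21 at 0.25 and 0.5 and did not pass at 1 (0.13). Of the resolutions 12 members were lower at 0.5 alone, among them Rps19bp1 (-0.40), Rpl7l1 (-0.39), Rpl22l1 (-0.36), Rpl36al (-0.32), Rpl39 (-0.25) and Rplp0 (-0.21). The differences of single genes that follow are over all cells unless these cells are named.

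**Figure D1:**
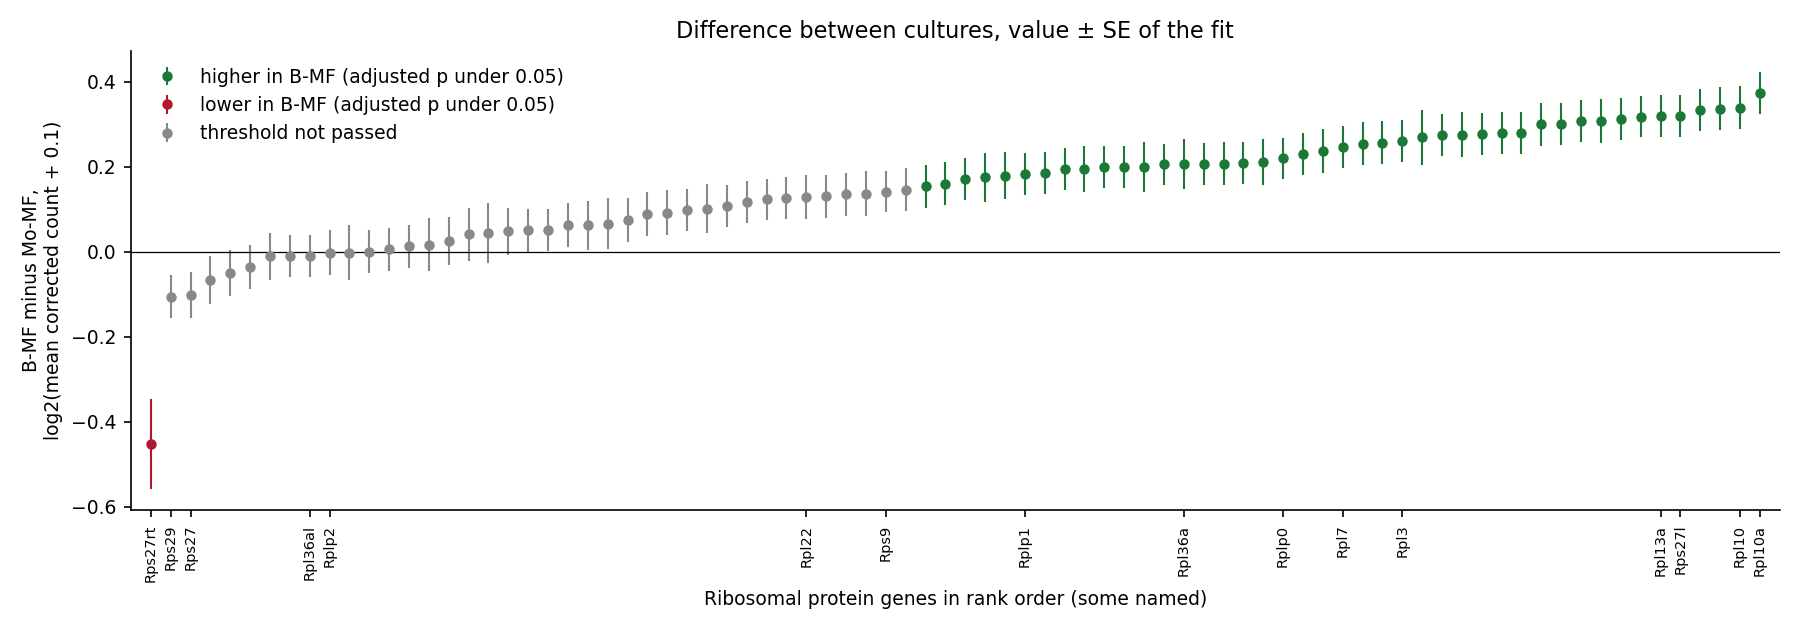
Difference between B-MF and Mo-MF over all cells for the 82 tested ribosomal protein genes in rank order, some of them named, on the scale of log2(mean corrected count + 0.1), with bars for the SE of the limma fit and colour for the call. Most genes sit slightly above 0, up to 0.37 for Rpl10a, and Rps27rt alone lies far below.

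The largest difference in favour of B-MF was that of Rpl10a, a protein of the large subunit whose gene lies at chr17:28328471-28331033 (GRCm38, plus strand). Its level was 25.6 and 26.1 corrected counts a cell in B-MF against 19.7 and 20.2 in Mo-MF, with a difference of 0.37 ± 0.05 (SE, adjusted p = 0.000629). Rpl10, which joins the large subunit late in its assembly, stood at 37.8 and 36.8 in B-MF against 29.4 and 29.6 in Mo-MF, a difference of 0.34. The B-MF libraries lay above the Mo-MF libraries for both genes, with a gap larger than the distance between replicates.

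Rpl13a of the large subunit was less abundant, at 2.75 and 2.68 corrected counts a cell in B-MF against 2.15 and 2.16 in Mo-MF. It was higher in B-MF by 0.32 on the log2 scale, and the libraries did not overlap. Rpl13a was 1 of 10 members under 5 corrected counts a cell, and the part of reads shared with near-identical copies in such low levels was not tested.

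The P-stalk recruits elongation factors to the large subunit. Its base, Rplp0, was at 25.2 and 25.2 corrected counts a cell in B-MF against 21.7 and 21.6 in Mo-MF (difference 0.22, adjusted p = 0.00863). Rplp1 was at 56.0 and 54.7 against 48.3 and 49.2 (difference 0.18, adjusted p = 0.0208). Rplp2, the partner of Rplp1, was at 22.0 and 23.0 against 22.2 and 23.0, with overlapping libraries and a difference of 0.00 ± 0.05 (SE, adjusted p = 0.971). Without Mo-MF replicate 1 the calls of Rplp0 (adjusted p = 0.105) and Rplp1 (0.249) were lost, as they were without Mo-MF replicate 2 (0.109 and 0.156), and that of Rplp1 also without the other cell types (0.0946). Within the cells named monocyte/macrophage-like the direction of Rplp0 changed with the resolution: it was higher in B-MF at 0.25 (0.20, adjusted p = 0.0126), did not pass at 1 (0.18, adjusted p = 0.0610) and was lower at 0.5 (-0.21, adjusted p = 0.0186). Rplp1, at 0.12, -0.01 and 0.14 for 0.25, 0.5 and 1, and Rplp2 passed at none. The proteins of Rplp1 and Rplp2 form a dimer, and whether their transcripts differed unequally between the cultures was not tested.

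The variant copies did not follow their main copies in a uniform way. Rps27l, a copy of Rps27 that is known as a target of p53, stood at 7.22 and 7.19 in B-MF against 5.66 and 5.85 in Mo-MF and was higher in B-MF by 0.32 ± 0.05 (SE, adjusted p = 0.00156). Rps27 itself was at 22.5 and 24.0 in B-MF against 24.8 and 25.1 in Mo-MF, lower in both B-MF libraries, with a difference of -0.10 that did not pass the test (adjusted p = 0.177). Rps27l counts thus equalled 32.1% and 29.9% of Rps27 counts in B-MF against 22.8% and 23.3% in Mo-MF, without overlap. Within the cells named monocyte/macrophage-like Rps27l was higher in B-MF at a resolution of 0.25 (0.28, adjusted p = 0.00311) and at 1 (0.32, adjusted p = 0.00485), but at 0.5 it was at 7.196 and 7.165 against 7.252 and 7.449 (-0.03, adjusted p = 0.661). Its ratio to Rps27 was there 30.8% and 29.04% against 30.4% and 30.6%, while at 0.25 and 1 it did not overlap.

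Rps27rt was the single member lower in B-MF. It was at 0.291 and 0.225 corrected counts a cell in B-MF against 0.434 and 0.346 in Mo-MF, a difference of -0.45 ± 0.11 (SE, adjusted p = 0.0104). The call was lost without the filter on low values (adjusted p = 0.130). At such a low level the size depended on the scale: it was -0.58 with a pseudocount of 0.01, -0.14 with a pseudocount of 1 and -0.11 with the mean of log values. Rps27rt is a retrotransposed copy at chr9:114982366-114982739 whose transcript of 374 bases spans the gene without an intron, and all 252 of its coding bases are identical to those of Rps27. By contrast, 202 bases match between the coding sequences of Rps27l (315 bases) and Rps27 (252 bases). This is 63.5% of an alignment of 318 positions, in which gaps count as mismatches. Reads from the coding part of Rps27 and Rps27rt therefore cannot be told apart by sequence. To show how far the copies match at the start of the transcript, 30 bases around the annotated start are given for each, from the RefSeq promoter table of GRCm38.p6, 10 before and 20 from the start onward, with the run nearest the start of a C and at least 4 further C or T in capitals.
Rps27: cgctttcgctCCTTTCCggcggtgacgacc
Rps27rt: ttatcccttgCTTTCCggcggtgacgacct
Rps27l: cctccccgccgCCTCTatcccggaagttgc
These windows are chr3:90213629-90213658 on the minus strand, chr9:114982720-114982749 on the minus strand and chr9:66946076-66946105 on the plus strand. They cover the end of the promoter and the first bases of exon 1. The windows of Rps27 and Rps27rt share an unbroken run of 19 bases, and those of Rps27 and Rps27l one of 4.

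Among the other copies, Rpl22l1 was at 4.53 and 4.63 in B-MF against 4.06 and 4.26 in Mo-MF, and Rpl22 at 13.4 and 13.9 against 12.3 and 12.6. Neither passed the test (adjusted p = 0.0729 and 0.0834), and Rpl22l1 equalled 33.0% to 33.9% of Rpl22 in all 4 libraries. Rpl36a was higher in B-MF, at 9.39 and 10.1 against 8.23 and 8.65 (adjusted p = 0.0238), a call lost with a pseudocount of 0.01 (0.0618), without the filter on low values (0.0794), without the other cell types (0.0643) and without Mo-MF replicate 1 (0.242) or 2 (0.0673), and Rpl36al overlapped at 1.961 and 1.983 against 1.976 and 1.997 (adjusted p = 0.891). Rpl3, at 21.0 and 20.8 against 17.3 and 17.6, and Rpl7, at 19.9 and 19.9 against 16.6 and 16.9, were both higher in B-MF, calls lost without Mo-MF replicate 1 (adjusted p = 0.0578 and 0.0872). Rpl7l1, at 0.923 to 0.956 in all 4 libraries, gave a difference of -0.00. Rpl39 had overlapping libraries, at 23.7 and 26.3 against 24.3 and 25.7. The muscle form Rpl3l and the testis form Rpl39l stayed under 0.03 corrected counts per cell in all 4 culture libraries. Within the cells named monocyte/macrophage-like, Rpl3 (0.20) and Rpl7 (0.23) were higher at a resolution of 0.25 and passed at neither 0.5 nor 1, and Rpl36a passed at none. Rpl22l1 was lower in B-MF at 0.5, at 4.42 and 4.55 against 5.73 and 5.81 (-0.36, adjusted p = 0.00163), and did not pass at 0.25 (0.08) or 1 (0.10).

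The members' differences varied with the length of the longest annotated coding sequence. They are given here beside the other tested genes in the same bin of length. Of the 10 tested members with up to 300 coding bases, 1 was higher and 1 lower in B-MF, with a median difference of -0.03, against 35.1% of other genes higher and a median of 0.08. Of the 30 members with 300 to 450 bases, 9 were higher, with a median of 0.09, near the 32.1% and 0.07 of other genes. Of the 19 members with 450 to 600 bases, 14 were higher, with a median of 0.21, against 26.4% and 0.05. Of the 23 longer members 19 were higher, with a median of 0.25, against 20.9% and 0.02 of 7146 other genes. These other genes were taken up to 10000 bases, while the longest tested member, Rpl4, has 1257. This bin is therefore not matched for length. Rps29, a zinc-binding protein of the small subunit head, was at 58.9 and 60.9 in B-MF against 64.4 and 64.5 in Mo-MF, lower in both B-MF libraries without passing the test (difference -0.11, adjusted p = 0.134).

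Across the 82 members, Spearman's rho between difference and coding length was 0.60, as a description, since the genes share the same 4 libraries. It was 0.45 to 0.66 for the 4 pairs of 1 B-MF and 1 Mo-MF library, 0.61 without the other cell types, 0.61, 0.42 and 0.58 within the cells named monocyte/macrophage-like at resolutions 0.25, 0.5 and 1, and 0.26 with the whole transcript length. Over 8391 other genes it was -0.05, and over the 3938 of them within the range of coding length of the members -0.08. Replicates of 1 group also differed along coding length: rho was -0.51 for B-MF replicate 2 against replicate 1 and -0.44 for Mo-MF replicate 2 against replicate 1. Between mean level and coding length of the members rho was -0.01.

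**Figure D2:**
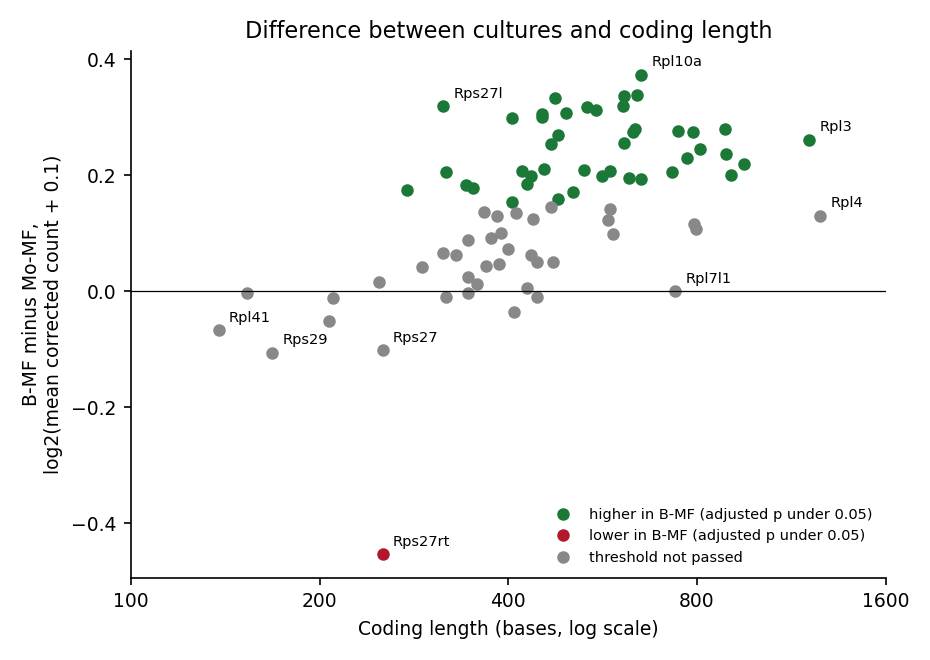
Difference between B-MF and Mo-MF on the scale of log2(mean corrected count + 0.1) against coding length in bases (log scale), over all cells, for the 82 tested ribosomal protein genes, 1 point a gene, coloured by call. The 10 members of up to 300 coding bases have a median of -0.03 and the 23 of over 600 a median of 0.25, with Rps27l, Rpl4 and Rpl7l1 away from the trend.

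When the libraries were scaled to the same ribosomal protein total, which removes the common shift and leaves the composition, 1 member was higher and 5 were lower in B-MF, against 8.73% and 28.0% of all genes tested on that scale. The scaling moved the median of all genes to -0.09 and that of the members to 0.01. Rpl10a stayed higher, by 0.22 ± 0.08 (SE, adjusted p = 0.0250). Lower were Rps27rt (-0.57), Rps29 (-0.26, adjusted p = 0.00742), Rps27 (-0.25, adjusted p = 0.00858), Rpl41 (-0.22) and Rps28 (-0.20), the last pair named after their values were seen. The remaining 76 did not pass the test. On this scale the fit gave every tested member the same SE, 0.0834. These calls therefore follow the size of the difference and not each gene's own spread between libraries. Neutrophil-like cells of the Mo-MF libraries, part of these values, had more Rps27 than the other cells, and the part of this in the difference was not tested. Set beside the median of the members, as a description, Rps27 stood at -0.27 over all cells and within the cells named monocyte/macrophage-like at -0.22, 0.01 and -0.26 for resolutions 0.25, 0.5 and 1. It was thus not lower than the other members at 0.5. Rps29, at -0.28, -0.12 and -0.21, Rpl41, at -0.25, -0.12 and -0.17, and Rps28, at -0.23, -0.21 and -0.17, were below that median at each, and Rpl10a, at 0.18, 0.33 and 0.15, was above it.

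Among ribosomal proteins that the symbols missed, Rack1, a signalling scaffold on the small subunit, and Rpsa were higher in B-MF, by 0.32 and 0.31. Rpsa was at 29.8 and 29.9 against 23.9 and 24.1. Fau, whose product is cut into a ubiquitin-like protein and a small subunit protein, did not pass the test at 54.7 and 54.7 against 55.1 and 54.9.

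Other genes of translation were counted over all cells in lists taken by symbol, beside the background of 22.6% higher and 16.9% lower. Of 12 elongation factors and other TOP genes, 6 were higher in B-MF and none was lower, with Eef1b2 (0.29) and Btf3 (0.27) in front. The 6 include Eef1akmt1 (0.25), a methyltransferase that acts on an elongation factor, and the 12 include Eef1e1, a protein of the tRNA synthetase complex, which are not elongation factors. Of 30 initiation factors 8 were higher, among them the eIF3 subunits Eif3i (0.35) and Eif3e (0.32), and 1 was lower, Eif4ebp1 (-0.18), the repressor of cap binding that mTORC1 inactivates. Of 59 genes of ribosome assembly 16 were higher, led by Nop10 (0.57) and Imp3 (0.54), and Mrto4 was lower (-0.20). Of 77 mitochondrial ribosomal proteins 16 were higher, led by Mrpl28 (0.41) and Mrps15 (0.38), and Mrpl1 was lower (-0.20). The counts higher of the last 3 lists lie near the background, so nothing is read from them. The medians of the lists were 0.13, 0.10, 0.07 and 0.07.

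Of 12 tested genes of mTORC1, Myc and Larp1 control, Myc alone passed the test. This count is below the background of 22.6% higher and 16.9% lower of all genes, so nothing is read from the list. This transcription factor, known to drive ribosome production, was at 0.414 and 0.399 corrected counts a cell in B-MF against 0.0700 and 0.0731 in Mo-MF. The difference was 1.56 ± 0.05 (SE, adjusted p = 2.22e-07), without overlap of the libraries. At a resolution of 0.5, the B-MF cluster with Myc among its leading genes had ribosomal protein shares of 11.1% and 11.6%. The B-MF cluster led by Pf4 and Ier3 had 12.1% and 12.5%. A link between Myc and these shares was not tested.

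In tumor, ribosomal protein transcripts set the cell classes far apart. The tumor table was normalised apart from the cultures, so its levels are given side by side with theirs and not tested against them. Over all cells the share was 12.3%, 10.0%, 11.6% and 10.7% in libraries 2 to 5, whose neutrophil-like cells made up 35.0%, 62.0%, 46.5% and 54.5%. The library with the fewest neutrophil-like cells had the highest share and the library with the most had the lowest.

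Within a class the libraries lay close together. The share was 4.95%, 5.58%, 5.52% and 5.22% in neutrophil-like cells and 15.7%, 15.8%, 15.3% and 15.3% in monocyte/macrophage-like cells of libraries 2 to 5. The classes did not overlap, and the mean difference within libraries was -10.2 percentage points, a ratio of 2.77 to 3.18. The exact sign-flip permutation test, two-sided, gave p = 0.125, the smallest value 4 libraries allow. Neutrophil-like cells also had fewer detected genes, with medians of 1318 to 1380 against 2475 to 2500, and slightly fewer corrected counts, with medians of 7481 to 7518 against 8485 to 8521. The part of these in the difference was not tested, and uncorrected counts were not analysed here.

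Classes of lymphoid cells had the highest shares. B-like cells were at 28.7%, 30.9% and 29.7% in libraries 3 to 5, with 52, 74 and 109 cells. T/NK-like cells were at 24.3%, 25.7% and 28.1% in libraries 2, 4 and 5, with 19 to 26 cells. Dendritic-like cells were at 15.9% to 16.8% and osteoclast-like cells at 15.9% to 19.7%, so that both ranges began just above that of the monocyte/macrophage-like cells and overlapped each other. In order, neutrophil-like cells were lowest, then came the other myeloid classes with neighbouring ranges, then T/NK-like and B-like cells. As whole classes these last did not overlap in these libraries. A cycling B-like cluster, with 11 cells each in libraries 4 and 5, had 23.7% and 22.8%, below the T/NK-like cells of these libraries. The other B-like cluster had 29.4% to 32.2% in libraries 3 to 5.

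**Figure D3:**
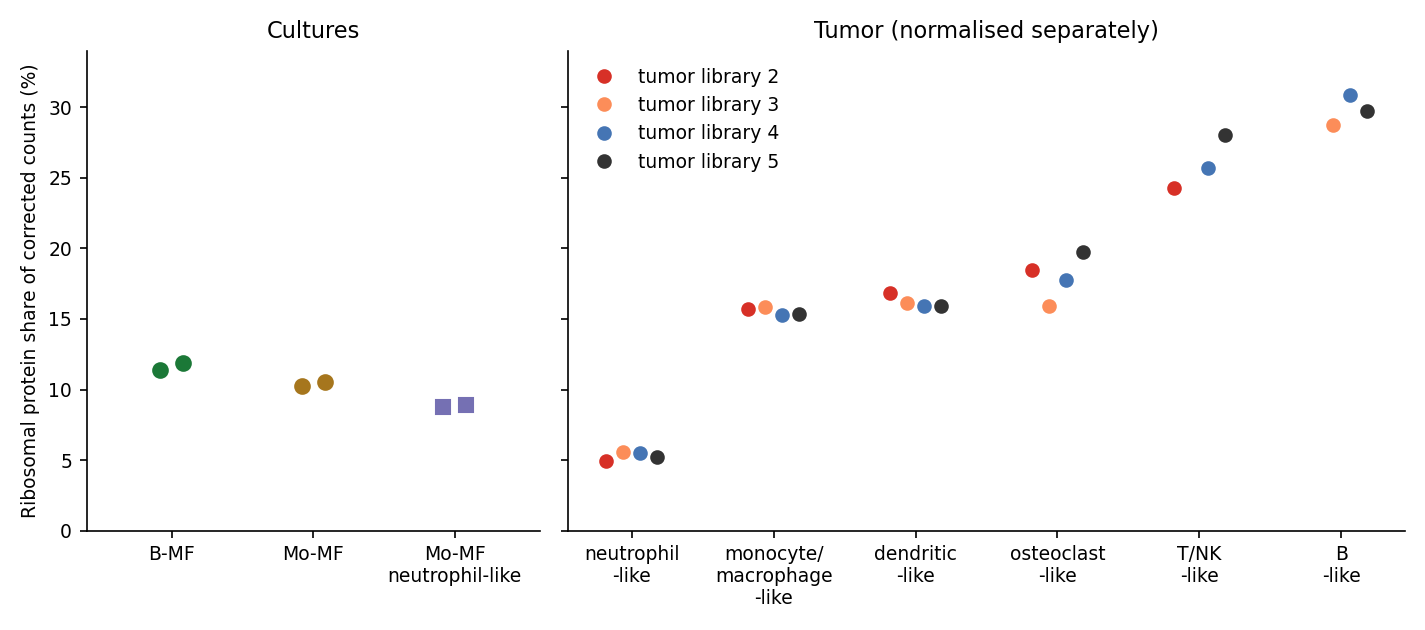
Ribosomal protein share of corrected counts in percent, 1 point a library, for the cultures (left) and for classes of tumor cells with at least 10 cells in the library (right). Over all cells B-MF libraries lie above Mo-MF libraries, and tumor neutrophil-like cells, at 4.95% to 5.58%, lie below all other classes.

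The large classes were not uniform. Among neutrophil-like clusters, the one led by the granule genes Ngp, Ltf and Camp had the lowest share in each library, 3.36% to 3.77%. The cluster led by Acod1 and Isg15 had 4.35% to 5.04% and that led by Steap4 and Lrg1 5.84% to 6.11%. Among monocyte/macrophage-like clusters, the Ccr2-led cluster had 16.9% to 17.8% and the cluster led by Sdc1 and Arg1 14.0% to 14.9%, without overlap. The cluster led by C1qc and cycling genes had 18.7% in library 2 and 15.6% to 16.4% in the others.

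Gene by gene, all 82 members with a mean of at least 0.1 in tumor were lower in neutrophil-like than in monocyte/macrophage-like cells in all 4 libraries. Of all 5905 genes with that mean 70.3% were lower in all 4 libraries and 19.9% were higher in all 4. The median difference was -1.79 for the members and -0.56 for all genes, on the scale of log2(mean corrected count + 0.1). The members were ranked alike in the 4 libraries, with Spearman's rho of 0.97 to 0.99 between libraries over the 82 genes. The related lists had medians of -1.71 for elongation factors and other TOP genes (11 of 11 lower in all 4 libraries), -1.31 for initiation factors (26 of 30), -1.10 for ribosome assembly (40 of 42) and -1.25 for mitochondrial ribosomal proteins (56 of 59). The added 0.1 draws the differences of genes near the minimum mean toward 0, and most members lie well above it. The part of level in the gaps between members and other genes, here and below, was not tested.

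Rpl10a had the largest difference. It was at 11.3, 11.6, 10.2 and 10.9 corrected counts a cell in monocyte/macrophage-like cells and at 1.58, 1.70, 1.77 and 1.67 in neutrophil-like cells, a mean difference of -2.64. Rpl36al was at 2.57 to 3.48 against 0.317 to 0.583 (-2.56), and Rpl4, a protein of the peptide exit tunnel, at 6.35 to 7.58 against 0.995 to 1.14 (-2.56). Rpl10a thus led the members higher in B-MF and, in tumor, the members lower in neutrophil-like cells.

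Rps27 and Rps9 stood out for how little they differed. Rps27 was at 21.0, 23.9, 23.9 and 21.2 in monocyte/macrophage-like cells and at 14.1, 17.3, 15.9 and 14.3 in neutrophil-like cells of libraries 2 to 5, a mean difference of -0.55. Rps9, a small subunit protein encoded at chr7:3703993-3706897, was at 31.3, 34.3, 30.5 and 34.4 against 20.6, 20.9, 19.3 and 20.7, a mean difference of -0.68. Rps27rt also gave -0.55, at 0.139 to 0.198 against 0.0531 to 0.117, but at this level the added 0.1 sets the size. As a plain ratio its level in monocyte/macrophage-like cells was 1.70 to 2.63 times that in neutrophil-like cells, against 1.38 to 1.503 times for Rps27 and 1.52 to 1.66 for Rps9. The classes did not overlap for any of these genes. The stalk genes Rplp0 (-1.86) and Rplp1 (-1.88) were near the members' median of -1.79, while Rplp2 (-1.49) differed less. Rpl3l missed the minimum mean and was under 0.1 corrected counts in both classes. It was above the monocyte/macrophage-like level in neutrophil-like cells in 3 of 4 libraries.

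Neutrophil-like cells of the Mo-MF cultures also had a lower share than the other cells. Their share was 8.73% and 8.91%, against 10.4% and 10.7% for the cells of the same libraries outside clusters of other types, a ratio of 1.19 and 1.20. This reference is wider than in tumor, and the tables were normalised apart. Cells named monocyte/macrophage-like, the reference in tumor, had 11.5% and 11.8% in these libraries at a resolution of 0.5. Of the 82 members 80 were lower in both libraries and 2 were higher, against 71.0% and 22.9% of 8633 genes, and the median difference was -0.41 against -0.30 for all genes. Higher were Rps9, at 58.6 and 58.2 in neutrophil-like cells and 48.5 and 49.2 in the other cells, and Rps27, at 28.1 and 27.4 against 24.4 and 24.8. Rplp1 had the widest difference, at 50.6 and 51.2 in the other cells against 28.7 and 30.4 in neutrophil-like cells. Over the 82 members the differences in tumor and in Mo-MF replicates 1 and 2 had Spearman's rho of 0.63 and 0.66.

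**Figure D4:**
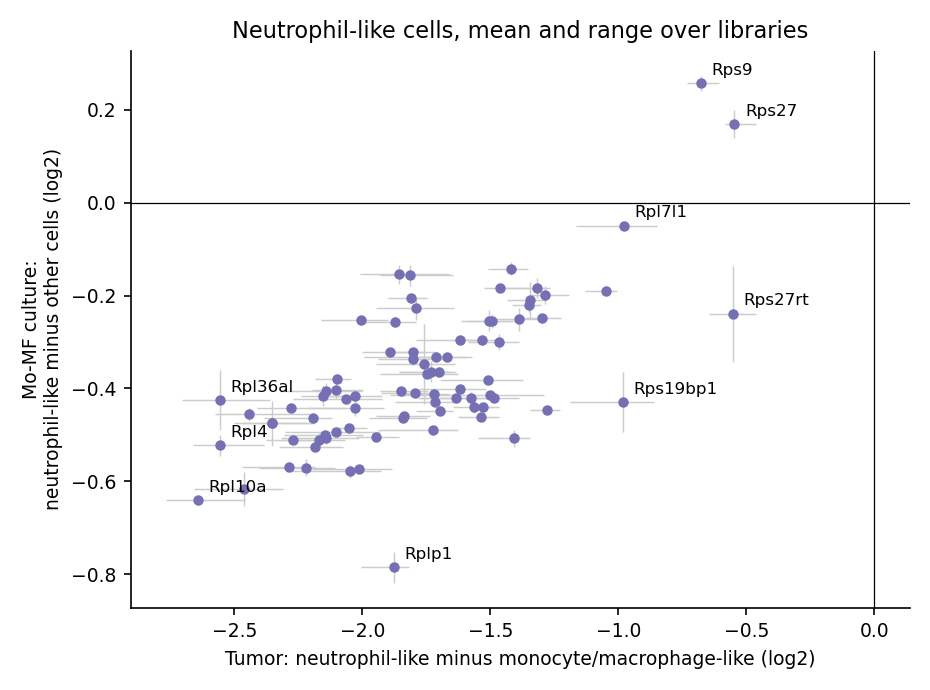
Difference of neutrophil-like cells in tumor (horizontal axis, against monocyte/macrophage-like cells, mean and range of 4 libraries) and in the Mo-MF cultures (vertical axis, against the other cells, mean and range of 2 libraries), both in log2, for the 82 ribosomal protein genes with a mean of at least 0.1. Rps9 and Rps27 are the 2 genes above 0 on the vertical axis and lie at the right, at -0.68 and -0.55.

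B-like cells differed from monocyte/macrophage-like cells in the opposite direction. In the 3 libraries with at least 10 B-like cells, 75 of 82 members were higher in B-like cells in every library and 2 were lower, against 24.4% and 52.3% of all 5905 genes. The median difference was 0.76 for the members and -0.29 for all genes. Rps27 was at 72.1, 78.5 and 67.1 corrected counts per cell in B-like cells, a difference of 1.65 from the values above. The difference of Rpl12 was 1.71, the largest, and this gene was chosen after its values were seen. The 2 members lower in B-like cells in all 3 libraries were Rps27l and Rpl36al. Rps27l was at 0.654, 1.07 and 0.917 against 1.96, 2.26 and 2.07 (-1.19), and Rpl36al at 3.31, 3.04 and 1.93 against 3.48, 3.41 and 2.57 (-0.21).

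Rps27l as a percentage of Rps27 therefore separated the cell classes. It was 8.21% to 10.9% in monocyte/macrophage-like, 3.85% to 5.02% in neutrophil-like and 0.907% to 1.37% in B-like tumor cells, without overlap of the libraries. In culture it was 29.9% and 32.1% in B-MF, 22.8% and 23.3% in Mo-MF (over all cells; cells named monocyte/macrophage-like at a resolution of 0.5 overlapped, as given above) and 15.4% and 16.4% in the neutrophil-like cells of Mo-MF. Over all cells B-MF, grown from B cells, thus lay at the other end from the B-like cells of the tumor. Every class in culture, at 15.4% or more, lay above every class in tumor, at 10.9% or less. The tables were normalised apart, so culture and cell origin cannot be told apart in this.

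**Figure D5:**
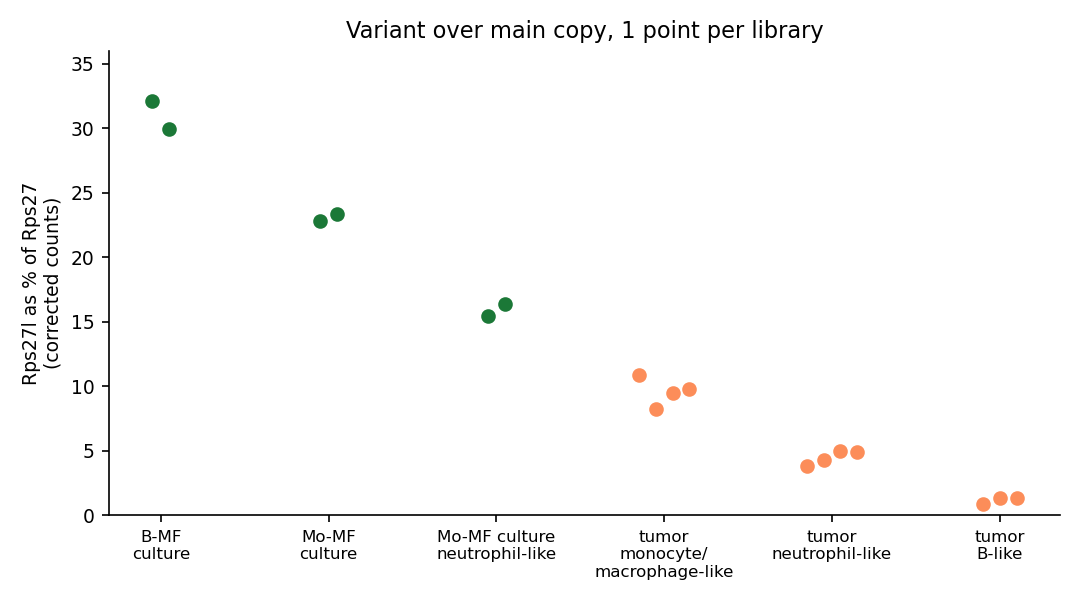
Rps27l as a percentage of Rps27 in corrected counts, 1 point a library, for cultures (green) and classes of tumor cells (orange). Values fall from 29.9% to 32.1% in all cells of B-MF to under 1.4% in tumor B-like cells.

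The starts of the genes were examined for the TOP element and in the ATAC-seq libraries. Of the 84 members 64 had an entry in the RefSeq promoter table (GRCm38.p6). A C followed by at least 4 C or T stood exactly at the annotated start of 14 of these, or 21.9%, against 3.01% of 27025 genes in the table, and began within 5 bases of the start in 46.9% against 21.2%. The letters CCGGAAG, a form of the core bound by ETS factors, were found on either strand of the 300-base promoters of 39.1% against 9.93%; overlap with other motifs was not examined. As examples with long runs and as a member that differed little in neutrophil-like cells, Rps10, Rpl15 and Rps9 had these 30 bases, drawn as above.
Rps10: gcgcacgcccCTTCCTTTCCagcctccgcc
Rpl15: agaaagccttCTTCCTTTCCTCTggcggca
Rps9: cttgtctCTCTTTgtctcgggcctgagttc
They lie at chr17:27635225-27635254 and chr14:18270967-18270996 on the minus strand and chr7:3704031-3704060 on the plus strand. Rps10 and Rpl15 begin with the run, and in Rps9 the run of 6 starts 3 bases before the annotated start. A match is a description of the letters only.

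In these B-cell precursors an ATAC-seq peak covered the annotated start of 69 to 71 of the 84 members in each of the 12 libraries. A peak in all 12 libraries was found for 69 members, or 73 when the start of any annotated transcript counted, a choice made after seeing the data, and for 62.6% and 69.9% of 13773 genes. By fold enrichment, the members' peaks had a median percentile among all peaks of their library of 88.0 to 89.8 in BM and of 81.9 to 85.75 in spleen, and those of other genes of 84.6 to 86.1 and of 81.5 to 82.6. These are ranks within lists of different length, 65832 to 76530 peaks in BM and 43407 to 50392 in spleen, so they do not compare the height of peaks between BM and spleen. Of the 13 members with a peak at the start in no library, Rpl3l and Rpl39l were the forms near 0 in culture and Rps27rt was the retrotransposed copy. Rpl17, Rps10 and Rps2 had a peak at another transcript start in all 12 libraries. Rpl3 had one within 500 bases of the start in 12 libraries and Rpl15 in 6. Rpl13a, Rps21 and Rps29 had none within 500 bases in any library. The peaks were called from uniquely mapped reads outside blacklisted regions, and the part of mapping in these absences was not tested.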

How the data were processed

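The members and gene lists were chosen with earlier results of these data known. The authors processed scRNA-seq reads with Cell Ranger and required 1000 detected genes. The deposited values are natural logs, ln(count + 1), of SCTransform-corrected counts. They were converted back to counts (largest distance from a whole number 0.00196). Depth before the correction is unknown, so no count model was fitted. Library means were compared with limma 3.58.1 (lmFit and eBayes, R 4.3.3) on log2(mean + 0.1), where the mean over the 4 libraries reached 0.1. Shares were compared by exact permutation tests over libraries. The procedure was tested on simulated data. Cells were clustered with Leiden (leidenalg 0.10.2, resolution 0.5, 20 neighbours, 30 components of 2000 variable genes) without ribosomal protein genes, and named by markers. For ATAC-seq, the authors aligned reads with BWA to mm10 and called peaks with MACS2 per library. The deposited lists give a fold enrichment (ratio) and a −log10 q-value for each peak, and no depth, and a deposited list joining all libraries was not used. A gene start was the 5′-most start in GENCODE vM21 (GRCm38). Coding lengths are those of the longest coding sequence of each gene in the same annotation, which need not be the main form of the protein. Named members were the 6 largest differences called each way, variant copies with main copies, the P-stalk, the 3 largest and smallest tumor differences, the members called at equal ribosomal protein totals, and those without a peak. Alternatives changed the pseudocount, filter, scaling, denominator, cells or libraries, and some were added after seeing the data. No doublet caller was run. The Python 3.11.15 steps used numpy 2.4.6 and pandas 2.3.3. Values of a few genes are not reported here.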

Additional observations from a re-analysis of the deposited data

Results flagged for a closer look

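For Rps27 and Rps9 the differences of neutrophil-like cells had opposite signs in tumor and culture. The mean difference from monocyte/macrophage-like cells in the 4 tumor libraries was -0.55 for Rps27 and -0.68 for Rps9, below 0 in each library. The mean difference from the other cells in the 2 Mo-MF libraries was 0.17 for Rps27 and 0.26 for Rps9, above 0 in each library. The median of the 82 members was -1.79 in tumor and -0.41 in culture, and both genes lay above it in both. The reference cells were also not the same class in tumor and culture. The difference between tumor and culture was not tested, since the tables were normalised apart.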

How the results depend on the processing

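The number of ribosomal protein genes higher in B-MF was 43 and the number lower was 1 (22.6% and 16.9% of all genes). It was 1 and 5 with libraries scaled to equal ribosomal protein totals (8.73% and 28.0% of all genes), where the common shift is removed by construction. With the mean of log values it was 67 and 3 (24.7% and 16.6% of all genes). Within the cells named monocyte/macrophage-like, alternatives chosen after seeing the data, it was 37 and 1 at a clustering resolution of 0.25 (20.9% and 17.2% of all genes). It was 9 and 1 at 1 (15.4% and 14.7% of all genes), and 5 and 13 at 0.5 (11% and 39.6% of all genes). The median difference at 0.5 was -0.02 for the members and -0.14 for all genes, so the balance of all genes moved too. At 0.5, 40 of the 82 differences turned from above to below 0, 19 of them of members called higher over all cells (at 0.25 and 1, 5 and 16 turned, none of them called). Of the members named by rule and called over all cells or there, it turned to -0.0332 for Rps27l, -0.36 for Rpl22l1, -0.0400 for Rpl36a, -0.21 for Rplp0, -0.00576 for Rplp1, -0.0348 for Rpl15, -0.0458 for Rps10 and -0.13 for Rps2, and for none of these at 0.25 or 1. The number lower was 4 with a pseudocount of 1 and 2 with a mean of at least 1 (16.8% and 27.5% of all genes). Leaving out 1 library gave 16 to 59 higher and 1 to 4 lower (4 without B-MF replicate 2), beside 12.8% to 44.7% and 10.6% to 34% of all genes. There the lone library is assumed to vary like the other group. The cause was not tested for the other settings. Over the remaining alternatives 34 to 59 genes were higher (12.1% to 50.8% of all genes), with 1 lower in those not named here. The difference in share was 0.163 percentage points in those cells at 0.5, 0.648 at 1 and 0.973 to 1.64 over the other alternatives, with no change of direction, and that of the tumor classes -10.6 to -10.04. With the replicate number as a block 44 genes were higher and 1 lower (25.9% and 19.3% of all genes), and the difference in share was the same 1.22. Deviations of same-numbered libraries had a correlation of 0.126 over 8633 genes, and with 2 pairs the numbers are not known to pair the libraries. With peaks at −log10 q of at least 5 or within 500 bases, 69 and 71 members had a peak in all libraries. With 2 libraries a group, small differences of single members are limited by the shared estimate of spread.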
